A study of Mus musculus with 12 samples.

Results

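Emx1 and 9 genes that flank it on mouse chromosome 6 were followed in bulk hippocampus by RNA sequencing of polyA RNA. The genes were chosen by their position (Emx1, Sfxn5, Rab11fip5, Smyd5, Pradc1, Cct7, Fbxo41, Alms1, Spr and Exoc6b), and all 10 were found among the 33250 gene symbols of the table. The choice was made with earlier results of these data known. The samples came from 12 male mice, 1 library per animal. The 6 wild-type animals (WT) are labelled Wild type, and the 6 conditional knockout animals (cKO) are labelled miR379-410 knockout. In the cKO animals Cre recombinase is active in Emx1-positive cells and removes the miR379-410 microRNA cluster, with glutamatergic neurons of the hippocampus as the intended site. The age, the strain, the Cre line and the Cre or loxP alleles that the WT animals may carry are given neither by the labels nor by the design text. Cells that never expressed Emx1 keep the cluster, and the tissue holds both kinds of cell. The comparison asks whether the gene that drives Cre, and the chromosome around it, differ between the genotypes.

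Emx1 encodes a homeodomain transcription factor of the dorsal forebrain. It is switched on in the progenitors of the cerebral cortex and hippocampus, and their progeny, mainly excitatory neurons and also astrocytes and oligodendrocytes, make up the Emx1 lineage. For this reason Emx1 is widely used to direct Cre to the cortex and hippocampus. In some driver lines the Cre sequence sits within the Emx1 gene itself, and in others it is carried by a transgene elsewhere. The 9 neighbours were chosen for their position beside Emx1, and their tasks in the cell are given with each.

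Library totals ranged from 42360624 to 51095816 estimated counts. Markers of hippocampal excitatory neurons were present in every library, with a summed level of 5919 to 6972 CPM (counts relative to the library total, scaled between libraries) over Prox1, Wfs1, Fibcd1, Neurod6, Slc17a7 and Camk2a. The library labelled cKO 1 stood apart at the targeted region on chromosome 12. B830012L14Rik, a long non-coding RNA gene beside the cluster, read 0.788 CPM in that library, 17.4 to 25.8 CPM in cKO 2 to 6 and 0.310 to 0.865 CPM in WT. Mirg, a non-coding RNA of the cluster itself, read 28.4 to 34.1 CPM in WT, 23.6 CPM in cKO 1 and 32.6 to 46.4 CPM in cKO 2 to 6. At Mirg cKO 1 lay below every WT library, and cKO 2 to 6 overlapped WT and were not lower. Mirg therefore did not check the labels. The comparisons below are therefore given with and without the library labelled cKO 1.

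Emx1 was lower in 5 of 6 cKO libraries than in every WT library. WT 1 to 6 read 9.11, 9.05, 9.25, 8.54, 9.60 and 8.38 CPM. The library labelled cKO 1 read 9.14 CPM, and cKO 2 to 6 read 6.32, 6.03, 6.10, 6.84 and 5.91 CPM. The value of cKO 1 lay inside the WT range, and no library lay between 6.84 and 8.38 CPM (0.223% of all genes had every cKO library below every WT library, and 1.01% without cKO 1). As a share of the WT mean, cKO 2 to 6 held 65.8% to 76.1% and cKO 1 held 101.7%. Mean Emx1 was 8.99 ± 0.453 CPM for WT and 6.72 ± 1.23 CPM for cKO (SD, n = 6 each), from 285 to 466 counts per library.

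With all 12 libraries the difference at Emx1 did not pass the threshold over the 19325 genes tested. The log2 fold change was -0.42 ± 0.10 (SE), with an unadjusted p of 0.000877 and an adjusted p of 0.308 in edgeR. Its 95% confidence interval ran from -0.63 to -0.21, and by p it ranked 52 of all genes tested. DESeq2, run on the same libraries with its own filter of low counts, called Emx1 with a log2 fold change of -0.42 and an adjusted p of 0.0173. It called 85 genes in all, against 2 in edgeR. With cKO 1 left out the log2 fold change was -0.53 ± 0.06 (SE), a fold of 0.690, with an edgeR adjusted p of 0.00499. Leaving out any other single library gave adjusted p values from 0.103 to 0.694. The value without cKO 1 describes the other 11 libraries and is no independent test, since that library was known to differ at Emx1.

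**Figure D1:**
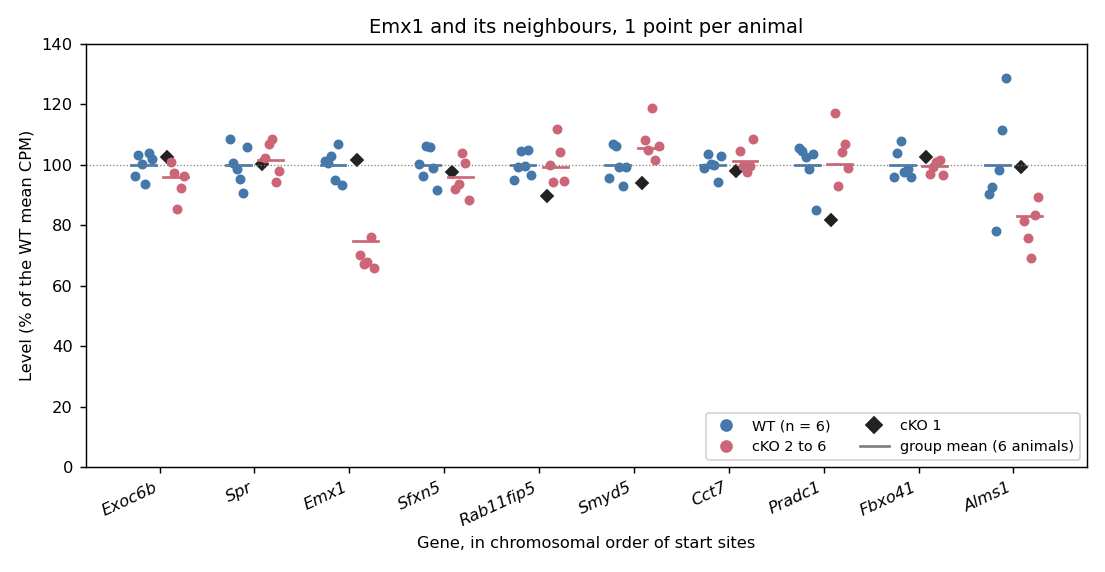
Level of each gene in each animal as a percent of the WT mean CPM of that gene (vertical axis), with genes in chromosomal order (horizontal axis), blue points for WT, red points for cKO 2 to 6, a black diamond for cKO 1 and bars for the group means. At Emx1, cKO 2 to 6 lie at 65.8% to 76.1% and cKO 1 lies with WT at 101.7%, while the groups overlap at each neighbour.

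In bulk tissue, fewer cells that express a gene and less RNA per cell cannot be told apart. The level of Emx1 was also set against markers of excitatory neurons, as a description. Per 1000 CPM of a list of 15 excitatory neuron markers, Emx1 read 0.805 to 0.960 CPM in WT, 0.857 CPM in cKO 1 and 0.587 to 0.708 CPM in cKO 2 to 6. The 15 markers summed to 9793 to 10980 CPM in WT and 9433 to 10660 CPM in cKO. On this ratio too cKO 2 to 6 lay below the WT range and cKO 1 inside it, and the part of cell number in the result was not tested. Per 1000 CPM of the 9 neighbours together, Emx1 read 11.52 to 13.04 CPM in WT, 12.6 CPM in cKO 1 and 8.23 to 9.33 CPM in cKO 2 to 6.

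No neighbour passed the test between the genotypes in edgeR, DESeq2 or limma-voom. At an adjusted p of 0.05 the count was 0 of 9 in each, and 0.0103% of all genes tested were called in edgeR. At an unadjusted p of 0.05 edgeR counted 1 of 9, Alms1, which was lower, beside 9.54% of all genes (6.34% lower and 3.2% higher). The groups overlapped in all 9 neighbours, and 0.404% of all genes had groups that did not overlap. Of the 9, 5 were lower and 4 higher, with a median log2 fold change of -0.00 beside 0.01 over all genes tested. Without the library labelled cKO 1 the counts were again 0 of 9 at the adjusted threshold (0.0308% of all genes) and 1 of 9 at the unadjusted one, again Alms1 (12.2% of all genes, 8.96% lower and 3.27% higher). The groups again overlapped in all 9 (1.57% of all genes did not).

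The nearest of the 9 on either side of Emx1 had overlapping groups. Spr encodes sepiapterin reductase, which makes the last step in the synthesis of tetrahydrobiopterin, the cofactor of dopamine and serotonin synthesis. It starts at -49.7 kb from the Emx1 start and lies on chromosome 6 from 85130176 to 85137766 (GRCm38, minus strand). Spr read 19.2, 21.1 and 23.0 CPM in WT (lowest, median and highest) and 19.96, 21.4 and 23.0 CPM in cKO. Its log2 fold change was 0.02 with a 95% confidence interval of -0.09 to 0.14, and 0.02 (-0.10 to 0.14) without cKO 1. Spr-ps1, an annotated pseudogene of Spr between the Spr and Emx1 genes, had a mean of 0.868 ± 0.202 CPM for WT and 1.17 ± 0.106 CPM for cKO (SD, n = 6 each). Its edgeR adjusted p was 0.399 (0.262 without cKO 1), and reads shared with Spr may have been divided between the pair.

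Sfxn5, on the other side, encodes a sideroflexin, a carrier of the mitochondrial inner membrane. It starts 146.0 kb from the Emx1 start and occupies 85213049 to 85333422 on the minus strand. Sfxn5 read 139.7, 152.0 and 162.0 CPM in WT and 134.8, 145.8 and 158.5 CPM in cKO. The log2 fold change was -0.06 with an interval of -0.16 to 0.04, so the interval holds no difference of the size seen at Emx1 without cKO 1. The library labelled cKO 1 read 149.0 CPM and lay among the others, and without it the value was -0.07 (-0.18 to 0.04).

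Exoc6b and Rab11fip5 both act in membrane traffic. Exoc6b encodes a subunit of the exocyst, the complex that tethers secretory vesicles to the plasma membrane, and lies upstream of Emx1 from 84618487 to 85069513 on the minus strand. Exoc6b read 131.7, 142.0 and 146.1 CPM in WT and 120.1, 135.9 and 143.8 CPM in cKO, with a log2 fold change of -0.06 (-0.15 to 0.03). Without cKO 1 it was -0.09 (-0.18 to 0.00), with an edgeR adjusted p of 0.441. Rab11fip5 encodes an effector of Rab11 on recycling endosomes and lies from 85334962 to 85374634 on the minus strand. Rab11fip5 read 80.3, 84.2 and 88.9 CPM in WT and 75.8, 82.4 and 94.7 CPM in cKO, where the lowest and highest cKO values came from cKO 1 and cKO 4. Its log2 fold change was -0.01 (-0.12 to 0.09), and 0.01 (-0.10 to 0.11) without cKO 1.

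Smyd5 and Fbxo41 encode enzymes, or parts of enzymes, that modify other proteins. Smyd5 is a methyltransferase with SET and MYND domains, at 85431989 to 85446435 on the plus strand. Smyd5 read 38.5, 41.1 and 44.3 CPM in WT and 38.9, 43.8 and 49.2 CPM in cKO. Its log2 fold change was 0.08 (-0.03 to 0.19), and 0.10 (-0.01 to 0.21) without cKO 1, the highest among the 9 neighbours in both fits. Fbxo41 is an F-box protein of neurons, a substrate adaptor of SCF ubiquitin ligases, at 85469574 to 85502994 on the minus strand. Fbxo41 read 149.0, 152.5 and 167.4 CPM in WT and 150.4, 155.4 and 159.2 CPM in cKO, a log2 fold change of -0.00 (-0.08 to 0.07), or -0.02 (-0.10 to 0.06) without cKO 1.

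Cct7 and Pradc1 are transcribed away from each other from neighbouring starts. Cct7 encodes a subunit of the chaperonin that folds actin and tubulin, and lies at 85451514 to 85468475 on the plus strand. Pradc1 encodes a secreted glycoprotein with a protease-associated domain, and lies at 85446810 to 85451970 on the minus strand. In RefSeq (GRCm38.p6) a start of Pradc1 at 85451302 and the start of Cct7 at 85451505 leave 202 bases between them. The stretch is shown because it lies directly upstream of the 2 starts just named. RefSeq also lists a Pradc1 start farther along, with a promoter window of 300 bases at 85451921 to 85452220. GENCODE M21 likewise has a Pradc1 transcript that starts farther along. The stretch lies downstream of that start, is intronic for that transcript and is in no annotated exon. It is written on the plus strand (chr6:85451303-85451504), with the matches to a pair of promoter motifs in capitals:
Cct7-Pradc1: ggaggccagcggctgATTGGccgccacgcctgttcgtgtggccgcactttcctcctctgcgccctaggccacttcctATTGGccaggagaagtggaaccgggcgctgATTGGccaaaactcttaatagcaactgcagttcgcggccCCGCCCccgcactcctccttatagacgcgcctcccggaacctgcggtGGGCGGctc
The box CCAAT, read on either strand, matched at 3 places. The box GGGCGG, also read on either strand, matched at 2 places, and no match overlapped another. Of 32841 RefSeq promoter windows of 300 bases, 37.4% held any match to the former motif and 35.7% to the latter. Those windows are longer than the stretch. Their median share of G and C is 52.7%, against 64.9% in the stretch, so the shares give no expected number of matches for it. A match describes the letters and shows no binding.

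The pair differed in level and spread. Cct7 read 116.9, 124.1 and 128.5 CPM in WT and 121.3, 123.5 and 134.6 CPM in cKO, a log2 fold change of 0.02 (-0.05 to 0.09), or 0.02 (-0.06 to 0.10) without cKO 1. Pradc1 read 5.81, 7.05 and 7.21 CPM in WT and 5.58, 6.95 and 8.01 CPM in cKO, a log2 fold change of 0.00 (-0.18 to 0.19), or 0.05 (-0.12 to 0.22) without cKO 1. The interval of Pradc1 is the wider one, at 262 to 361 counts per library against 5381 to 6989 for Cct7. The annotated bounds of the genes overlap by 457 bases on opposite strands. Overlap of their exons was not measured, and without a stated strand setting reads from any shared exon bases cannot be assigned to either.

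Alms1 had the lowest log2 fold change of the 9 neighbours. It encodes a protein of centrosomes and the base of cilia, mutated in Alström syndrome, and lies at 85587531 to 85702753 on the plus strand, 400.1 kb from the Emx1 start. WT 1 to 6 read 11.98, 12.3, 10.3, 13.01, 14.8 and 17.1 CPM, and cKO 1 to 6 read 13.2, 10.8, 10.1, 9.19, 11.1 and 11.8 CPM. The groups overlapped, and WT 5 and WT 6 were the highest of all libraries. The log2 fold change was -0.27 ± 0.11 (SE), with an edgeR adjusted p of 0.496, and -0.33 ± 0.11 with an adjusted p of 0.235 without cKO 1. Alms1 also had the widest spread within WT, a coefficient of variation of 17.9% beside 3.33% to 7.74% at the other 9 genes.

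Partial copies of Alms1 lie next to it and may share its reads. Alms1-ps1 read 0.480 ± 0.195 CPM for WT and 0.534 ± 0.269 CPM for cKO, and Alms1-ps2 read 0.919 ± 0.309 and 1.03 ± 0.215 CPM (SD, n = 6 each). Neither passed in edgeR (adjusted p = 0.934 and 0.867, and 0.809 and 0.776 without cKO 1), and both lay far below Alms1 in CPM. Annotated exon lengths are 20273 bases for Alms1, 2166 for Alms1-ps1 and 2421 for Alms1-ps2, so the gap per length is smaller. Gm42600 and Gm43588, annotated models that await experimental proof, lie inside the Alms1 gene on the same strand.

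**Figure D2:**
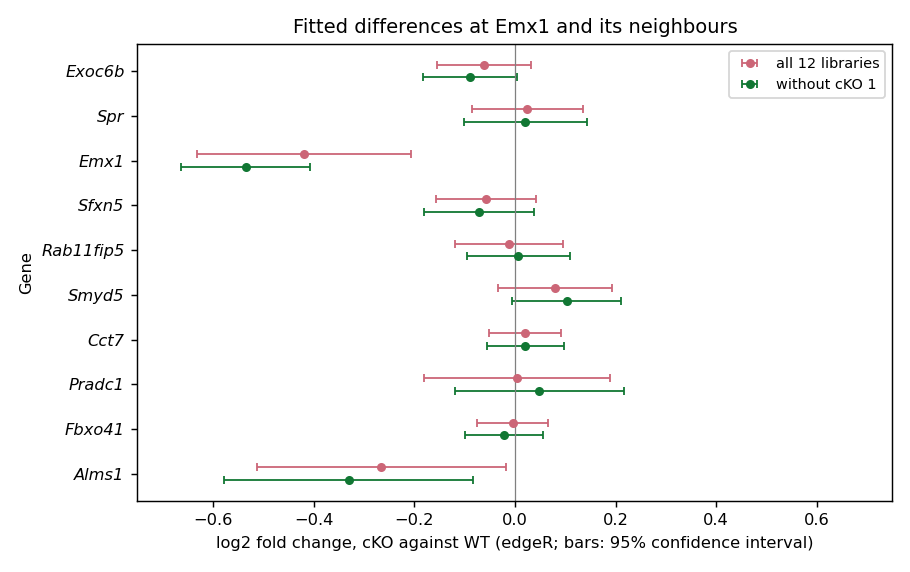
Fitted log2 fold change of cKO against WT (horizontal axis) with its 95% confidence interval for each gene (vertical axis), with all 12 libraries in red and without cKO 1 in green. The intervals of Emx1 and Alms1 lie below 0 in both fits, and Emx1 is the gene that passed the adjusted threshold without cKO 1.

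Per length, Emx1 was among the weaker genes of the stretch. Levels were divided by the annotated exon length to give CPM per kilobase, a scale on which genes can be set side by side. In WT the order was Fbxo41 (23.2), Cct7 (18.3), Sfxn5 (15.8), Rab11fip5 (13.8), Exoc6b (9.27), Smyd5 (7.09), Spr (5.97), Emx1 (4.11), Pradc1 (3.35) and Alms1 (0.653). Of neighbours in this order, the WT ranges overlapped for Sfxn5 and Rab11fip5 alone. Emx1 spanned 3.84 to 4.39 CPM per kilobase in WT and Pradc1 2.85 to 3.54. In cKO 2 to 6 the places of the pair were exchanged, with 2.71 to 3.13 for Emx1 and 3.12 to 3.93 for Pradc1, and their ranges overlapped. Annotated exon length can exceed that of the transcripts present, and then the level per length is too low.

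Genes close to Emx1 were next counted by distance, whether among the 9 or not. Of 42 symbols whose start lies within 1 Mb of the Emx1 start, 31 were tested, Emx1 included. Leaving Emx1 out, 8 of 30 (26.7%) had an unadjusted p under 0.05, with 5 lower and 3 higher in cKO. From 1 to 5 Mb it was 15 of 113 (13.3%), from 5 to 20 Mb 13 of 134 (9.70%), and over the rest of chromosome 6 66 of 714 (9.24%). On other chromosomes it was 1730 of 18198 (9.51%). With all 12 libraries none of the genes in the chromosome 6 windows passed the adjusted threshold in edgeR. Without cKO 1 the count that passed was 1, in the rest of the chromosome, Emx1 again left out. Median log2 fold changes were near 0 in each window, at 0.00 within 1 Mb and 0.01 on other chromosomes. Neighbouring genes are not independent, some of them share reads, and the share was not tested against chance. Without the library labelled cKO 1 the count within 1 Mb was again 8 of 30. In the same fit it was 18 of 115 (15.7%) from 1 to 5 Mb, 22 of 135 (16.3%) from 5 to 20 Mb, 87 of 719 (12.1%) over the rest of chromosome 6 and 12.2% on other chromosomes. The count within 1 Mb was 5 of 30 without cKO 2, without cKO 3 or without cKO 4.

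The 4 genes within 1 Mb with the smallest p that were not among the 10 were Gm19265, Nat8f6, Nat8f5 and Spr-ps1. Nat8f5 and Nat8f6 belong to a cluster of closely related N-acetyltransferase genes downstream of Alms1, and their annotations overlap on the same strand. Nat8f5 (85817218 to 85820972) read 1.07 to 1.39 CPM in WT, 1.32 CPM in cKO 1 and 0.555 to 0.848 CPM in cKO 2 to 6. Nat8f6 (85808024 to 85820954) read 0.124 to 0.775 CPM in WT, 0.597 CPM in cKO 1 and 0.781 to 1.47 CPM in cKO 2 to 6. At both genes cKO 1 lay inside the WT range and cKO 2 to 6 lay outside it, in opposite directions. The log2 fold changes were -0.58 ± 0.18 for Nat8f5 and 1.07 ± 0.32 for Nat8f6 (SE), with edgeR adjusted p of 0.354 and 0.353, from 25 to 68 and 6 to 75 counts per library. Without cKO 1 they were -0.78 and 1.17, with adjusted p of 0.0722 and 0.144. Reads of these copies may have been divided between them, so their separate values are uncertain.

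Besides these, 4930553P18Rik, a long non-coding RNA, was the other gene among the 30 at which cKO 2 to 6 did not overlap WT, a total of 3 of 30 (10%, with 1 lower and 2 higher) beside 1.53% on other chromosomes. Over all genes 0.559% were higher in this way. It was chosen after its values were seen. It read 0.510 to 0.927 CPM in WT, 0.597 CPM in cKO 1 and 1.06 to 1.52 CPM in cKO 2 to 6, with an edgeR adjusted p of 0.506 for all libraries and 0.158 without cKO 1. Gm19265, an antisense RNA gene, did not follow this pattern. It read 2.53 to 3.08 CPM in WT, 1.94 CPM in cKO 1 and 2.14 to 2.55 CPM in cKO 2 to 6, with an edgeR adjusted p of 0.343 (0.169 without cKO 1). Its groups overlapped, and cKO 1 was the lowest library. Egr4, an activity-regulated transcription factor gene between Fbxo41 and Alms1, also had overlapping groups, with means of 12.8 ± 2.07 CPM for WT and 11.05 ± 0.921 CPM for cKO (SD, n = 6 each, edgeR adjusted p = 0.520, and 0.368 without cKO 1).

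**Figure D3:**
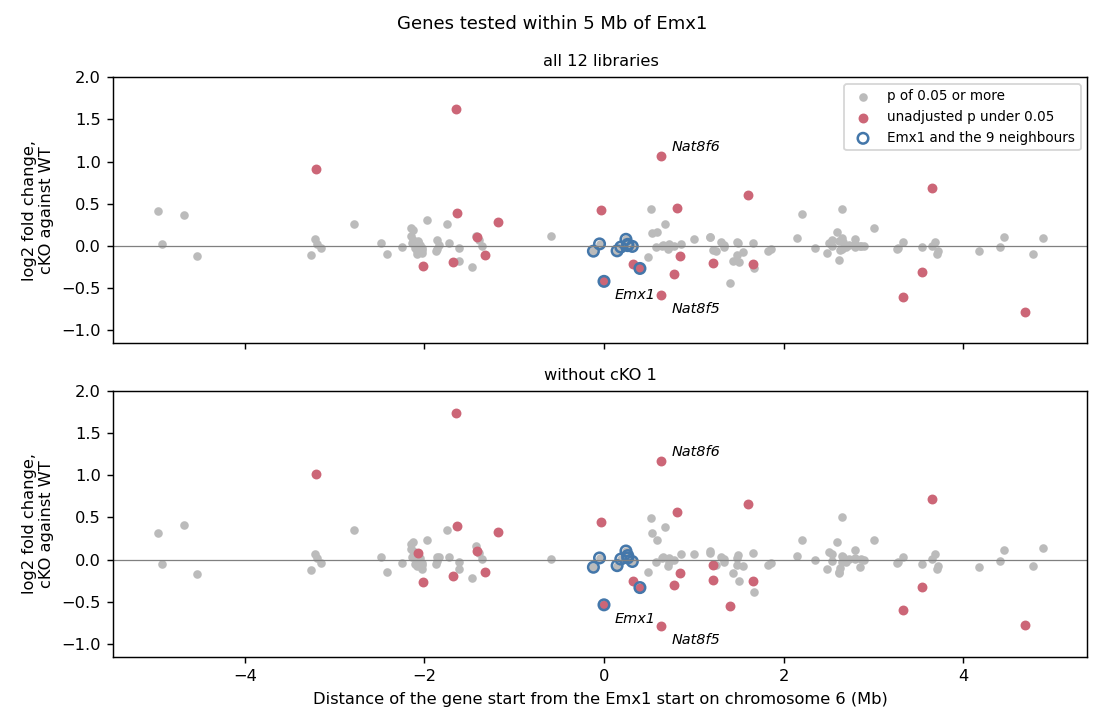
Log2 fold change of cKO against WT (vertical axis) of each gene tested within 5 Mb of Emx1, against the distance of its start from that of Emx1 (horizontal axis), with all 12 libraries above and without cKO 1 below. Red points have an unadjusted p under 0.05, blue circles mark Emx1 and its 9 neighbours, and Nat8f5 and Nat8f6 lie on opposite sides of 0 at 633.5 kb.

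At Emx1, Nat8f5, Nat8f6 and 4930553P18Rik cKO 1 lay inside the WT range and cKO 2 to 6 lay outside it. These genes are listed together because cKO 2 to 6 did not overlap WT there, so the separation follows from the choice. With all 12 libraries 0 of the 30 genes within 1 Mb had groups that did not overlap, beside 0.390% on other chromosomes. At Nat8f6 the gap was narrow, with 0.775 CPM the highest in WT and 0.781 CPM the lowest in cKO 2 to 6.

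The 5 genes whose profile over the 12 libraries was nearest to that of Emx1 lie on other chromosomes. Nearness was the root mean square difference of log2 CPM after subtracting the mean of each gene, over 15544 genes with a mean of at least 1 CPM. The nearest were Gm47798 (0.128), Rimbp3 (0.135), Zgrf1 (0.136), Dclre1a (0.136) and Pcdhb19 (0.137), against a median of 0.292 over the genes compared and a spread of Emx1 around its own mean of 0.268. All 5 were lower in cKO on average, and cKO 1 lay inside the WT range in each. Gm47798 read 3.04 to 4.04 CPM in WT, 3.45 CPM in cKO 1 and 2.43 to 2.61 CPM in cKO 2 to 6. Dclre1a read 6.04 to 7.58 CPM in WT, 6.65 CPM in cKO 1 and 5.07 to 6.39 CPM in cKO 2 to 6, so there the groups overlapped also without cKO 1. None of the 5 passed in edgeR, with adjusted p from 0.308 to 0.467, and 0.0740 to 0.130 without cKO 1, while DESeq2 called Zgrf1 (0.0234). They were chosen for likeness to Emx1 over all 12 libraries. Their difference between genotypes and the place of cKO 1 among WT therefore both follow from the choice.

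**Figure D4:**
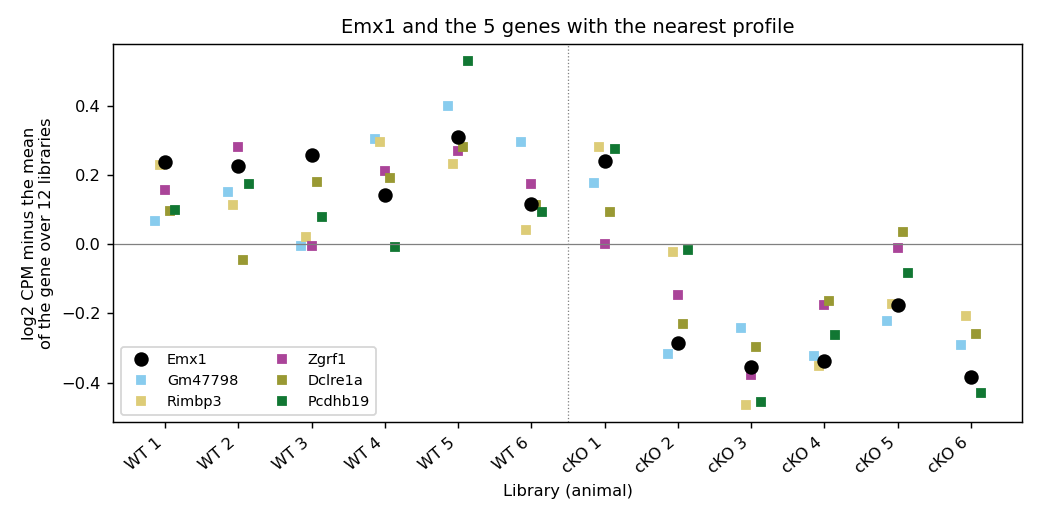
Log2 CPM of Emx1 (black) and of the 5 genes nearest to it (coloured squares) after subtracting the mean of each gene over 12 libraries (vertical axis), by library (horizontal axis), with WT to the left of the dotted line. In cKO 1 all 6 genes lie above 0, and in cKO 2 to 6 all lie below 0 except Dclre1a in cKO 5. The 5 genes were chosen for this likeness, cKO 1 included.

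Emx2, a paralogue that works in patterning the hippocampus, had overlapping groups. Emx2 read 13.1 to 16.7 CPM in WT and 14.2 to 17.7 CPM in cKO, with a log2 fold change of 0.10 (95% confidence interval -0.05 to 0.24) and an edgeR adjusted p of 0.70. Without cKO 1 it was 0.11 (-0.04 to 0.26). Among 30 transcription factors that pattern the forebrain or mark its excitatory neurons, 9 were higher and 21 lower, with a median of -0.05 beside 0.01 over all genes. In edgeR none passed the adjusted threshold, and 3 of 30 had an unadjusted p under 0.05 beside 9.54% of all genes. The 4 with the smallest p were Neurod6 (-0.11 ± 0.04, SE), a factor of pyramidal neurons, Nr2f2 (0.35 ± 0.14), a factor of caudal regions and of some interneurons, Gli3 (-0.18 ± 0.08), a mediator of hedgehog signals, and Bcl11b (-0.11 ± 0.05). Their edgeR adjusted p ran from 0.451 to 0.528. Without cKO 1 the unadjusted count was 8 of 30 in place of 3, with 7 lower and 1 higher, and again none passed. Over all genes it was 12.2%, with 8.96% lower and 3.27% higher. The lowest of the 7 was Zbtb20 (-0.44, edgeR adjusted p = 0.188), and the 1 higher was Nr2f2 (0.40, edgeR adjusted p = 0.248).

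Of the 15 excitatory neuron markers 12 were lower and 3 higher, with a median log2 fold change of -0.06, and -0.09 without cKO 1. None passed in edgeR in either fit. In each fit 3 of 15 had an unadjusted p under 0.05 (1 higher and 2 lower), beside 9.54% of all genes with all libraries and 12.2% without cKO 1. Grin2a, an NMDA receptor subunit, had -0.20 ± 0.07 (SE), Neurod6 the value above, Ociad2 0.12 ± 0.05 and Calb1, a calcium buffer of granule cells, -0.09 ± 0.05, with edgeR adjusted p from 0.399 to 0.612. The sizes of these estimates are below the -0.42 of Emx1, and that contrast was not tested.

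Among markers of other cells, those of smooth muscle had separate sums in the genotypes. The 5 genes Acta2, Myl9, Tagln, Myh11 and Cnn1 summed to 46.7 to 81.6 CPM in WT and 84.5 to 131.8 CPM in cKO, with cKO 1 the lowest of the cKO libraries. All 5 were higher with a median log2 fold change of 0.84, all 5 had an unadjusted p under 0.05 (9.54% of all genes, 3.2% higher), and none passed the adjusted threshold in edgeR. Without cKO 1 the median was 0.91, again with all 5 at an unadjusted p under 0.05 (3.27% of all genes higher) and none past the adjusted threshold. The list was chosen with earlier results of these data known, so these counts are no independent test. None of the 5 was at 0 counts throughout, and the part of vessel tissue in the result at Emx1 was not tested. The 7 astrocyte markers (4508 to 4973 CPM in WT, 4226 to 4798 CPM in cKO), the 6 oligodendrocyte markers (2878 to 4322 and 2319 to 3821 CPM) and the 6 interneuron markers (596.3 to 696.0 and 590.0 to 768.3 CPM) had overlapping sums. So did the 5 microglial markers (212.8 to 217.9 and 199.0 to 221.2 CPM), the 5 endothelial markers (215.5 to 230.8 and 222.0 to 253.2 CPM) and the 6 dissection markers of neocortex and striatum (143.7 to 206.9 and 160.6 to 219.3 CPM). These 6 sums overlapped also without cKO 1. Overlapping sums do not show that single markers were alike. With all 12 libraries all 6 oligodendrocyte markers were lower, and all 6 interneuron and all 5 endothelial markers higher. At an unadjusted p of 0.05 edgeR counted 2 of 7 astrocyte markers (1 higher, 1 lower) and 1 of 5 endothelial markers (higher), beside 9.54% of all genes. In the oligodendrocyte, interneuron, microglial and dissection lists it counted 0. No marker of these 6 lists passed the adjusted threshold. The 6 choroid plexus markers summed to 81.9 to 8109 CPM (WT) and 52.7 to 5412 CPM (cKO), lowest in WT 2, WT 3 and cKO 4. Without these 3 libraries the log2 fold change of Emx1 was -0.38, with an edgeR adjusted p of 0.580.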

How the data were processed

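The submitters' processing notes name Salmon 1.3.0 and GRCm38. The authors deposited estimated counts (expected counts) per gene symbol for 12 libraries, not scaled between them. Their annotation and strand setting are not stated in the notes or labels. Values were rounded to whole numbers, and 24.8% to 25.9% of a library's values were not whole before that. Positions and exon lengths came from GENCODE M21, and promoter windows from RefSeq (GRCm38.p6). A stretch inside an annotated UTR is not printed.

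Genotypes were compared with edgeR 4.0.16 (quasi-likelihood test, R 4.3.3) after TMM scaling, on genes kept by filterByExpr (count minimum 10, total 15). Benjamini-Hochberg adjustment ran over all 19325 genes tested, threshold 0.05. Ranges in parentheses after a log2 fold change are 95% confidence intervals. Log2 CPM for nearness used a prior count of 2. Alternatives were DESeq2 1.42.0, limma-voom (limma 3.58.1), other scalings and filters, an animal-number block and each library left out. The steps were tested on simulated data. Within a genotype each pair of libraries differed beyond counting noise (chi-square per degree of freedom at least 8.51).

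Members and lists were chosen with earlier results of these data known. Named were the 10 genes, the 4 others within 1 Mb with the smallest p, the 5 nearest profiles, the 4 smallest p of the 2 lists, and B830012L14Rik and Mirg to check the labels. Related copies, Egr4, Emx2 and genes so marked were added after values were seen. Leaving out cKO 1 in windows and lists, and WT 2, WT 3 and cKO 4 together, was chosen after seeing the data.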

Additional observations from a re-analysis of the deposited data

Results flagged for a closer look

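Among 20 groups of 6 libraries (10 genes in 2 genotypes), 2 held a library far from the others of its genotype, with a gap above Dixon's 95% critical value for 6 samples. Chance flags about 1 in 20 groups. The library labelled cKO 1 stood above the other cKO libraries at Emx1, with 9.14 CPM against 5.91 to 6.84 CPM. WT 6 stood below the other WT libraries at Pradc1, with 5.81 CPM against 6.74 to 7.21 CPM.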

How the results depend on the processing

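Emx1 was lower in cKO under all 21 alternatives, with log2 fold changes of -0.53 to -0.38, and -0.53 to -0.39 when 1 library was left out. It passed the threshold with DESeq2 (-0.42) and without cKO 1 (-0.53), and in none of the other 19. The neighbours called stayed at 0 of 9 throughout. All genes called numbered 2 in edgeR, 85 in DESeq2, 0 in limma-voom, 1 with no low-count filter, 1 with at least 1 CPM in at least 6 libraries, 0 with animal number as a replicate block and 0 without WT 2, WT 3 and cKO 4. With 1 library left out the count ranged from 0 to 6, the 6 being without cKO 1. With the block, Emx1 had -0.43 (adjusted p = 0.483). Animal numbers share no stated litter or day, correlations of same-numbered deviations ran from -0.27 to 0.25, and 1 of 6 WT libraries was closest to its own number. Neighbours near 0 changed sign. Pradc1 was -0.0018 with limma-voom, -0.00013 with the block and -0.052 to 0.049 with a library left out. Fbxo41 was 0.0049 with library totals alone, 0.035 without WT 2, WT 3 and cKO 4, and -0.025 to 0.011 with 1 library left out. With 1 library left out Rab11fip5 ranged from -0.050 to 0.0071, Cct7 from -0.0085 to 0.030, Spr from -0.0019 to 0.044 and Alms1-ps1 from -0.054 to 0.32, the last -0.16 without WT 2, WT 3 and cKO 4. The cause was not tested. The count of genes within 1 Mb at an unadjusted p under 0.05 ranged from 5 to 8, or 16.1% to 27.3% of those tested, beside 5.89% to 14.4% on other chromosomes. Emx1 and Pradc1 rest on the fewest counts of the 10 genes, 285 to 466 and 262 to 361 per library.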
